A study of Arabidopsis thaliana with 21 samples.

Results

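Arabidopsis thaliana roots 12 h after a mock treatment were compared with roots taken before treatment, with 3 RNA-seq libraries in each group, 6 of the 21 libraries of the series. All genes were considered: 32833 were in the count table and 19938 passed the filter on low counts and were tested. The series has 7 groups, the roots taken at 0 h before treatment, and roots 6, 12 and 24 h after mock treatment or after treatment with AtCEP5, a small secreted peptide of the CEP (C-TERMINALLY ENCODED PEPTIDE) family. The series concerns CEP peptides, auxin and cytokinin signalling and root growth, and the mock samples follow the roots without the peptide. The labels used here name no accession, genotype, plant age, light regime, growth medium or composition of the mock solution, and they give the cell type as root meristem cell, although the tissue is given as roots. The roots before treatment were not sampled again at 12 h, so elapsed time, time of day and the handling that came with the mock treatment cannot be told apart.

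A root supplied with sugar, light and mineral nutrients takes up nitrate, iron, phosphate and sulfate through transporters whose genes respond to the plant's nutrient status. When carbon runs short, the SnRK1 kinase and a set of dark-inducible genes promote amino acid breakdown and autophagy, while cell division and ribosome production slow. Handling, wounding, cold and drought induce further sets of genes, many within minutes, and the circadian clock moves many transcripts with the time of day.

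The 6 libraries held 12427073–14345476 total counts, and ribosomal RNA genes took 0.270–0.601% of them. The libraries taken before treatment differed more among themselves than those at mock 12 h, with a chi-square per gene of 15.1–36.2 against 7.23–10.3 for pairs within a group, and no pair agreed within sampling noise. Meristem regulators were present in both groups, with PLT1, a PLETHORA factor of the stem cell niche, at 11.2, 12.6 and 15.1 CPM (read counts scaled to library size) before treatment and 10.9, 7.76 and 9.30 CPM at mock 12 h. Genes of differentiated tissue were present too, such as the Casparian strip gene CASP5 and the root hair regulator RSL4, so the libraries held more than meristem transcripts. The labels do not tell whether the replicates came from separate cultures or plants. The p-values measure the spread within groups, pooled over the 21 libraries of the series, and that spread may be technical. They do not measure the spread of these 6 libraries alone.

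Between the groups 7455 of 19938 genes changed (37.4%, edgeR's quasi-likelihood test, Benjamini-Hochberg adjusted p under 0.05). Of all genes tested 17.7% (3537) rose and 19.7% (3918) fell at mock 12 h, and 894 of them rose and 1592 fell at least 2-fold. The median log2 fold change over all genes was −0.01, and in 7113 of the changed genes all 3 libraries of one group lay above all 3 of the other. The same held in 9572 of the 19938 genes tested, changed or not, so it is no separate support for the calls. Roots at mock 12 h had more transcript of iron and nitrate uptake, flavonoid synthesis, ribosome production and mitosis, and less of sugar starvation, autophagy, abscisic acid, jasmonate and immune genes. In a bulk sample fewer cells of a type and less RNA per cell cannot be told apart. All fold changes below are log2, mock 12 h minus before treatment, with their standard error (SE).

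Sugar transporters of the SWEET family, which move sugars out of cells, had the largest falls of the named genes with a mean of at least 5 CPM. SWEET11, a sucrose exporter of phloem loading (AT3G48740, chromosome 3, 18052466–18054832), stood at 27.3, 51.6 and 55.3 CPM before treatment and 0.311, 0.517 and 0.14 CPM at mock 12 h. Its log2 fold change was −7.09 ± 0.38, adjusted p = 4.16e-11. SWEET12, its close relative with the same role (AT5G23660, chromosome 5, 7971647–7973995), stood at 55.5, 79.6 and 116 CPM before treatment and 0.621, 0.961 and 0.14 CPM at mock 12 h, a change of −7.18 ± 0.55, adjusted p = 3.79e-09. In both genes every library at mock 12 h was below 1 CPM while every library before treatment was above 25. The naming rule for the largest changes required groups that do not overlap. SWEET3, another member of the family (AT5G53190, chromosome 5, 21572143–21574329), had 429 reads over the 3 libraries before treatment and 1 read at mock 12 h. After scaling for depth it was 440.4-fold lower, with an exact counting interval of 78.6–17440 that covers counting error only. In the wider list of sugar transport and sucrose metabolism 7 rose and 12 fell of 32 tested members (median log2 −0.27). The 21.9% that rose were near the 17.7% of all genes, and the 37.5% that fell stand beside 19.7%. SUC1, a proton-coupled sucrose importer, rose from 109 ± 30.9 to 265 ± 12.7 CPM (mean ± SD, n = 3; 1.28 ± 0.17, adjusted p = 6.46e-06), and TPS1, the trehalose-6-phosphate synthase of sugar signalling, rose by 1.26 ± 0.20, adjusted p = 3.66e-05. CWINV5, a cell wall invertase family gene, had no read before treatment and 60 reads at mock 12 h. With a floor of 3 reads per library it was at least 6.49-fold higher. It passed the filter on low counts through groups other than before treatment and could not fall.

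Genes of sugar starvation and darkness fell as a group: 20 of 29 tested members fell and 1 rose, with a median of −1.12. The 69.0% that fell stand beside 19.7% of all genes. SEN1, a senescence- and dark-induced gene (AT4G35770, chromosome 4, 16944878–16946266), stood at 30.4, 29.9 and 64.5 CPM before treatment and 0.932, 0.739 and 1.54 CPM at mock 12 h. It fell by 5.26 ± 0.64 (adjusted p = 1.78e-06). BGAL4, a beta-galactosidase gene, stood at 757, 667 and 646 CPM before treatment and 140.1, 144 and 152 CPM at mock 12 h (−2.25 ± 0.14, adjusted p = 3.11e-10). IVD, isovaleryl-CoA dehydrogenase of leucine breakdown, stood at 189, 161 and 198 CPM before treatment and 40, 39.6 and 40.6 CPM at mock 12 h (−2.19 ± 0.18, adjusted p = 8.79e-09). ASN1, the dark-inducible asparagine synthetase, stood at 2.98, 4.34 and 20 CPM before treatment and 1.63, 1.11 and 0.35 CPM at mock 12 h (−3.15 ± 0.64, adjusted p = 0.000542), and its level before treatment was highest in replicate 3. The member that rose was SNRK1.2, a catalytic subunit of the SnRK1 kinase (0.29 ± 0.12, adjusted p = 0.0487), and its adjusted p was 0.0652–0.16 without any 1 of 5 libraries (before treatment replicates 1 and 3 and each at mock 12 h).

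The TATCCA box is a short element known from sugar-starvation promoters of rice amylase genes. In the 250 bases before the gene start, searched on both strands, it lay in 8 of 29 windows of this list (27.6%), against 14% of the windows of 19891 tested genes and 18% of those of genes that fell. The share was not particular to this list. It was as high or higher in the photosynthesis (45.7%), heat and protein folding (38.9%), CEP pathway (33.3%), autophagy (29.6%) and immunity (27.6%) lists, and lower in the remaining lists. The window of LKR, the fallen member with the smallest adjusted p among those whose window holds the box and touches no other gene, is shown because the gene takes part in the fall, with the box in capitals, 5′ to 3′ on TAIR10.1. LKR (lysine breakdown, chr4:15991634-15991883, minus strand) changed by −1.36 ± 0.16.
LKR: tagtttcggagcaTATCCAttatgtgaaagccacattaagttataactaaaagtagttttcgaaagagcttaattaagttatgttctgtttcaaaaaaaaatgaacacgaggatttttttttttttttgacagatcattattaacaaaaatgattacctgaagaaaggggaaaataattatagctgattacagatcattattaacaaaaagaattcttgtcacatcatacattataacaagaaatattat

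Autophagy genes, which recycle cell contents, fell alongside: 18 of 27 fell (66.7% against 19.7% of all genes) and none rose. The log2 changes of those that fell were −0.32 to −1.99 (median of all tested members −0.56). ATG8F, which tags autophagosome membranes, stood at 345, 226 and 251 CPM before treatment and 87.8, 95.9 and 90 CPM at mock 12 h (−1.59 ± 0.21, adjusted p = 5.72e-06). ATG1C, a kinase subunit that starts autophagy, went from 39.3 ± 2.92 to 17.5 ± 0.939 CPM (−1.17 ± 0.13, adjusted p = 7.44e-07).

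**Figure D1:**
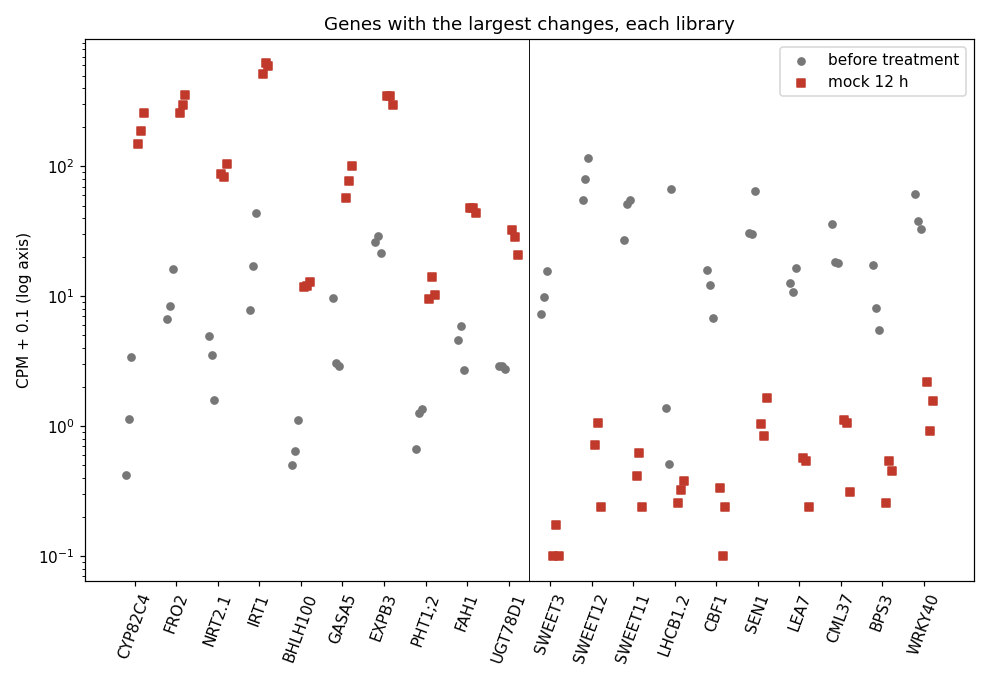
CPM + 0.1 on a log axis for the 10 named genes with the largest rise (left) and the 10 with the largest fall (right), 1 point per library, grey circles before treatment and red squares at mock 12 h, 3 libraries each. The groups do not overlap in any of the 20 genes, which the naming rule required, and LHCB1.2 before treatment lies at 0.413–67.5 CPM.

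Iron genes rose: 19 of 30 tested members rose (63.3% against 17.7% of all genes) and 2 fell, with a median log2 of 0.86. Roots of Arabidopsis reduce ferric iron with FRO2, take it in through IRT1 and release coumarins that bring iron into solution. IRT1 (AT4G19690, chromosome 4, 10707344–10709015) stood at 7.81, 17.1 and 44.1 CPM before treatment and 513, 620.3 and 589 CPM at mock 12 h, a change of 4.64 ± 0.41, adjusted p = 2.69e-08. FRO2 (AT1G01580, chromosome 1, 208995–213082) stood at 6.60, 8.40 and 16.1 CPM before treatment and 257, 296 and 354 CPM at mock 12 h, a change of 4.87 ± 0.33, adjusted p = 6.52e-10. Both were highest before treatment in replicate 3 and still more than 10 times lower there than in any library at mock 12 h. CYP82C4, which hydroxylates the coumarin fraxetin to sideretin (AT4G31940, chromosome 4, 15451988–15454224), had the largest rise of the named genes with a mean of at least 5 CPM, from 0.322, 1.03 and 3.31 to 149.5, 186 and 258 CPM (6.99 ± 0.49, adjusted p = 8.58e-10). Transcription factors moved in both directions: BHLH100, a group Ib bHLH factor of the iron deficiency response, stood at 0.402, 0.551 and 1.02 CPM before treatment and 11.8, 12.0 and 12.9 CPM at mock 12 h (4.2 ± 0.37, adjusted p = 2.44e-08), whereas its relative BHLH101 stood at 7.72, 8.95 and 9.45 CPM before treatment and 2.41, 2.44 and 3.43 CPM at mock 12 h (−1.65 ± 0.35, adjusted p = 0.000735). BHLH101 overlaps a gene on the opposite strand. MYB72, which promotes coumarin release, had no read before treatment and 63 at mock 12 h, at least 6.82-fold higher. It passed the filter on low counts through groups other than before treatment, so it could not fall and could add only to the rises. The other member of the list that fell was VTL5, a vacuolar iron transporter-like gene (−0.89 ± 0.21, adjusted p = 0.00234).

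Nitrate and ammonium genes rose more often than they fell: 15 rose and 5 fell of 32 tested members (median log2 0.58), 46.9% rising against 17.7% of all genes. NRT2.1, the main high-affinity nitrate transporter of roots (AT1G08090, chromosome 1, 2524023–2526322), stood at 4.83, 3.44 and 1.5 CPM before treatment and 87.1, 82.5 and 105 CPM at mock 12 h. It rose by 4.81 ± 0.41, adjusted p = 1.7e-08. GLN1;2, a cytosolic glutamine synthetase, stood at 1214, 1098 and 1038 CPM before treatment and 5362, 5451 and 4387 CPM at mock 12 h (2.18 ± 0.19, adjusted p = 2.49e-08). NRT2.4, a second high-affinity transporter, had no read before treatment and 28 at mock 12 h, at least 3.03-fold higher. Having passed the filter on low counts through groups other than before treatment, it could not fall. Those that fell included NRT1.5, which loads nitrate into the xylem (1427, 1329 and 975 to 599.7, 499.6 and 318 CPM; −1.40 ± 0.20, adjusted p = 1.13e-05), and BT1, a nitrate-responsive scaffold protein (−1.51 ± 0.37, adjusted p = 0.00299). The count that fell was 3 without before treatment replicate 2 or mock 12 h replicate 3. The CEP pathway, which relays nitrogen status between root and shoot, had 14 listed and 9 tested members: 6 rose and none fell (66.7% rising against 17.7% of all genes, median log2 1.60). Members nearly without reads before treatment, such as CEP9, passed the filter on low counts through other groups and could hardly fall. The absence of falls and the median are therefore partly set by that filter. CEP5, the gene of the peptide used in the other treatment (AT5G66815, chromosome 5, 26677365–26678002), stood at 3.54, 3.72 and 4.72 CPM before treatment and 9.55, 7.46 and 8.88 CPM at mock 12 h (1.11 ± 0.28, adjusted p = 0.00386). CEPH, a phosphatase that activates NRT2.1, stood at 0.402, 0.413 and 0.315 CPM before treatment and 3.18, 4.8 and 4.68 CPM at mock 12 h (3.45 ± 0.51, adjusted p = 1.75e-05), and CEPD1, a glutaredoxin-like mobile signal, at 0.563, 0.895 and 0.315 CPM before treatment and 4.74, 4.14 and 5.04 CPM at mock 12 h (2.93 ± 0.37, adjusted p = 2.42e-06). CEP9, a further CEP precursor, had 1 read before treatment and 87 at mock 12 h, a ratio of 84.7 after scaling with a counting interval of 14.8–3385. Of the 5 tested glutaredoxins of the nitrogen-status list 2 fell and none rose, with GRXS13 at 184, 119 and 112 CPM before treatment and 51.2, 53.8 and 61.5 CPM at mock 12 h (−1.32 ± 0.26, adjusted p = 0.000395).

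Sulfur genes rose too (9 rose and 1 fell of 23 tested members, 39.1% rising against 17.7% of all genes, median log2 0.44). APR2, adenosine-5′-phosphosulfate reductase, went from 17.2, 16.1 and 24.8 to 44.7, 53.6 and 45.0 CPM (1.3 ± 0.22, adjusted p = 8.85e-05) and LSU2, a low-sulfur response gene, from 6.92, 4.2 and 6.14 to 19.3, 20.3 and 13.9 CPM (1.64 ± 0.28, adjusted p = 8.6e-05). The GAGAC core of the sulfur response element lay in 4 of 23 windows of the list (17.4%), against 25.1% of all windows. Phosphate genes moved both ways (5 rose and 6 fell of 21 tested members, median log2 −0.07). Their shares of 23.8% and 28.6% were not far from the 17.7% and 19.7% of all genes. The phosphate transporter PHT1;2 rose by 3.46 ± 0.34, adjusted p = 1.04e-07 and PHT1;1 by 1.17 ± 0.21, adjusted p = 0.000198, and their near-identical sequences leave the split of reads between them uncertain. PAP17, an acid phosphatase of phosphate starvation, fell by 1.14 ± 0.19 (adjusted p = 5.8e-05). The count of phosphate members that rose was 3 without before treatment replicate 1 or mock 12 h replicate 3.

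**Figure D2:**
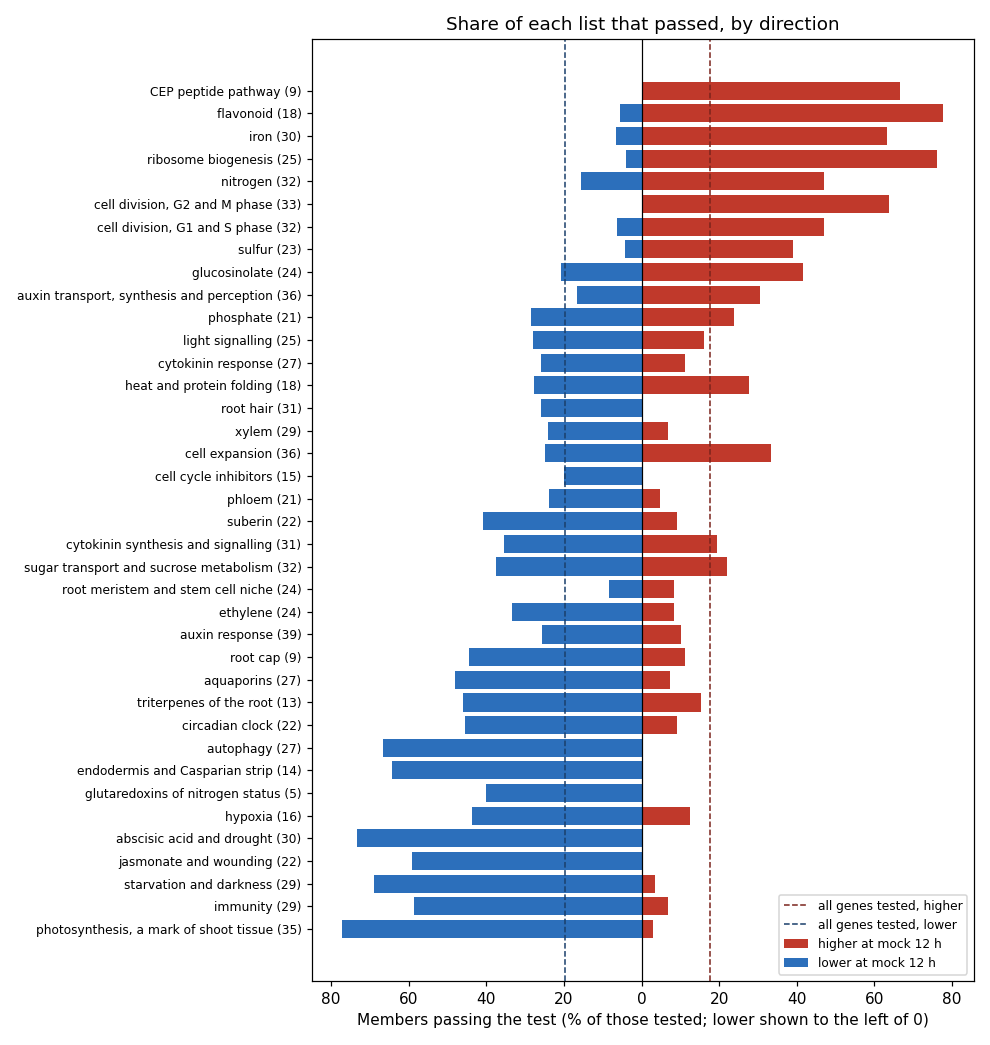
Percentage of the tested members of each gene list (number tested in brackets) that passed at an adjusted p under 0.05, rising to the right of 0 and falling to the left, sorted by median log2 fold change; dashed lines give 17.7% and 19.7% for all genes tested. CEP, flavonoid, iron and ribosome lists lie at the rising end and photosynthesis, immunity and starvation lists at the falling end.

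Genes of growth rose. Ribosome biogenesis, the assembly of ribosomal subunits in the nucleolus, had 19 of 25 members up and 1 down (76.0% up against 17.7% of all genes; median 0.80). The member that fell, REIL1, had an adjusted p of 0.0732–0.126 without before treatment replicate 2 or 3 or mock 12 h replicate 1 or 3. FIB2, a fibrillarin that methylates ribosomal RNA, stood at 83.0, 111 and 107 CPM before treatment and 256, 216 and 246 CPM at mock 12 h (1.25 ± 0.16, adjusted p = 3.13e-06). ENP1, a factor of the small subunit, stood at 29.2, 31.0 and 36.0 CPM before treatment and 72.0, 62.1 and 76.3 CPM at mock 12 h (1.13 ± 0.12, adjusted p = 2.47e-07). Every library at mock 12 h lay above every library before treatment in both. In either direction, the groups did not overlap in 7113 of the 7455 changed genes. The telo box, AAACCCTA, is known from promoters of genes of the translation machinery. It lay in 5 of 25 windows of the list (20%), against 3.59% of all windows, 4.86% of those of genes that rose and 2.1% of those of genes that fell. FIB1, the only risen member whose window holds the box and touches no other gene, is shown with the box in capitals (chr5:21293897-21294146, plus strand, 250 bases before the gene start, 5′ to 3′). It rose by 0.39 ± 0.13.
FIB1: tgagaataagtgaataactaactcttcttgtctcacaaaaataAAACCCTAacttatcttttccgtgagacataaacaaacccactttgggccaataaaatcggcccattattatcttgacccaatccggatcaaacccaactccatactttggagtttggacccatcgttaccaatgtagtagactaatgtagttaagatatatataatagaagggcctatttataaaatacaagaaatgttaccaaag

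Cell division genes rose at both stages. In G1 and S phase 15 of 32 rose (46.9% against 17.7% of all genes) and 2 fell. PCNA1, the sliding clamp of DNA polymerase, stood at 17.2, 18.4 and 23.4 CPM before treatment and 38.6, 34.4 and 32.5 CPM at mock 12 h (0.83 ± 0.17, adjusted p = 0.00055). CYCD3;1, a D-type cyclin of G1 entry, stood at 12.6, 17.2 and 13.7 CPM before treatment and 33.5, 30.7 and 32.4 CPM at mock 12 h (1.15 ± 0.18, adjusted p = 3.21e-05) and overlaps a gene on the same strand. The count that rose was 9 without before treatment replicate 1 or mock 12 h replicate 3, and 1 fell without replicate 1 or 2 of either group. In G2 and M phase 21 of 33 rose and none fell (63.6% rising against 17.7% of all genes, by 0.44 to 1.28). PLE, a microtubule bundler of the division plane, stood at 7.48, 10.5 and 7.71 CPM before treatment and 23.4, 17.9 and 20.4 CPM at mock 12 h (1.26 ± 0.21, adjusted p = 6.77e-05). CYCA1;1 rose by 0.98 ± 0.15, adjusted p = 3.55e-05 and the mitotic cyclin CYCB1;1 by 0.73 ± 0.20, adjusted p = 0.00557. Of the 15 cell cycle inhibitors tested 3 fell and none rose, a share of falls near the 19.7% of all genes. Among those that fell, KRP1 went from 19.5, 13.2 and 16.1 to 3.88, 6.36 and 5.04 CPM (−1.67 ± 0.31, adjusted p = 0.000242). The number of inhibitors that fell was 5 without before treatment replicate 2, and 1 inhibitor also rose without before treatment replicate 3.

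Most regulators of the stem cell niche did not pass the test. Of 24 tested, 2 rose, 2 fell and 20 did not pass (8.33% each way against 17.7% and 19.7% of all genes). PLT1 had a log2 fold change of −0.47 ± 0.21, adjusted p = 0.0832, and PLT2 of −0.37 ± 0.27, adjusted p = 0.301, so neither passed, although PLT2 was −0.81 with an adjusted p of 0.0276 without mock 12 h replicate 1. The risers were ANT, an AP2 factor of organ growth and the cambium (4.18, 4.68 and 2.91 to 16.7, 14.6 and 19.5 CPM; 2.1 ± 0.24, adjusted p = 8.05e-07), and the cambium homeobox gene WOX4 (2.01 ± 0.32, adjusted p = 4.11e-05). UPB1, which governs the transition to elongation, fell by 1.66 ± 0.22 (adjusted p = 6.02e-06), and ACR4, which encodes a receptor kinase of columella stem cells, changed by −0.69 ± 0.17, adjusted p = 0.00342.

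The cell expansion list, of expansins, xyloglucan endotransglucosylases and cellulose synthesis genes, split: 12 rose and 9 fell of 36 tested members (median log2 −0.18). These are 33.3% and 25.0% against 17.7% and 19.7% of all genes. The beta-expansin EXPB3 (AT4G28250, chromosome 4, 13999625–14002124) stood at 26.2, 29.1 and 21.4 CPM before treatment and 346, 348 and 296 CPM at mock 12 h (3.69 ± 0.20, adjusted p = 4.16e-11), and the alpha-expansin EXPA4 rose by 2.54 ± 0.13, adjusted p = 4.16e-11. The xyloglucan endotransglucosylase XTH22, the touch gene TCH4, stood at 85.8, 63.1 and 55.1 CPM before treatment and 5.67, 6.95 and 7.55 CPM at mock 12 h (−3.33 ± 0.31, adjusted p = 5.11e-08), and XTH24 fell by 3.03 ± 0.18 (adjusted p = 2.34e-10). GASA5, a gibberellin-regulated peptide gene, rose from 9.58, 2.96 and 2.83 to 57.0, 77.6 and 100.3 CPM (3.95 ± 0.35, adjusted p = 2.9e-08). Aquaporins fell more often than they rose (2 rose and 13 fell of 27 tested members, 48.15% falling against 19.7% of all genes, median log2 −0.41). Only 1 aquaporin rose without before treatment replicate 1 or 2 or mock 12 h replicate 3. TIP2;3, a tonoplast channel for water and ammonia, stood at 343, 368 and 475 CPM before treatment and 70.8, 59.8 and 43.6 CPM at mock 12 h (−2.77 ± 0.22, adjusted p = 4.35e-09), and the plasma membrane channel PIP1;2 changed by −1.13 ± 0.17, adjusted p = 3.08e-05.

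Flavonoid genes rose together: 14 of 18 tested rose (77.8% against 17.7% of all genes) and 1 fell, with a median of 1.53. TT5, chalcone isomerase, stood at 56.8, 35.2 and 27.0 CPM before treatment and 252, 299.5 and 228 CPM at mock 12 h (2.71 ± 0.20, adjusted p = 1.55e-09). UGT78D1, a flavonol rhamnosyltransferase, rose by 3.29 ± 0.24, adjusted p = 1.55e-09. The member that fell was MYBL2, a repressor of the pathway, at 10.5, 6.95 and 8.11 CPM before treatment and 0.776, 0.665 and 0.21 CPM at mock 12 h (−3.94 ± 0.53, adjusted p = 6.32e-06). FAH1 (AT4G36220), ferulate 5-hydroxylase of the sinapate and syringyl lignin branch, rose from 4.51, 5.85 and 2.60 to 47.8, 48.1 and 43.4 CPM (3.41 ± 0.22, adjusted p = 4.39e-10). In the glucosinolate list, 10 rose and 5 fell of 24 tested members (median log2 0.15). These are 41.7% and 20.8% against 17.7% and 19.7% of all genes, so the share falling was near that of all genes. In the methionine-derived branch, CYP83A1 rose by 2.84 ± 0.24, adjusted p = 1.23e-08 and CYP79F2 by 2.4 ± 0.22, adjusted p = 3.59e-08. In the tryptophan-derived branch, MYB51, its activator, changed by −2.38 ± 0.29, adjusted p = 1.45e-06 and IGMT2, an indole glucosinolate methyltransferase, by −1.40 ± 0.21, adjusted p = 2.94e-05. Of the root triterpene genes 2 rose and 6 fell of 13 tested members (46.15% falling against 19.7% of all genes, median log2 −0.42). MRN1, marneral synthase, stood at 75.1, 107 and 41.7 CPM before treatment and 2.64, 2.96 and 1.89 CPM at mock 12 h (−4.90 ± 0.37, adjusted p = 3.64e-09). In the triterpene list 1 member rose without mock 12 h replicate 1.

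Genes of abscisic acid and drought fell without exception among those that passed: 22 of 30 tested fell and none rose (73.3% against 19.7% of all genes). NCED3, the rate-limiting enzyme of abscisic acid synthesis, stood at 22.4, 32.0 and 38.4 CPM before treatment and 4.66, 3.84 and 3.64 CPM at mock 12 h (−2.94 ± 0.23, adjusted p = 5.62e-09). HAI1, an abscisic acid-induced protein phosphatase, stood at 16.7, 20.8 and 25.8 CPM before treatment and 4.27, 3.25 and 3.01 CPM at mock 12 h (−2.59 ± 0.23, adjusted p = 1.95e-08). LEA7, a late embryogenesis abundant gene of drying cells, stood at 12.6, 10.7 and 16.5 CPM before treatment and 0.466, 0.443 and 0.14 CPM at mock 12 h (−5.23 ± 0.41, adjusted p = 4.21e-09). All libraries at mock 12 h were below all those before treatment in these 3 genes. The naming rule required this for LEA7, and the groups did not overlap in 7113 of the 7455 changed genes.

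Jasmonate and wounding genes behaved alike (13 of 22 fell and none rose, 59.1% falling against 19.7% of all genes, median −0.91). However, 1 member rose without before treatment replicate 1. CYP94B3, which inactivates the active jasmonate conjugate, stood at 76.3, 73.3 and 49.4 CPM before treatment and 9.32, 6.72 and 6.01 CPM at mock 12 h (−3.18 ± 0.21, adjusted p = 6.52e-10), and the jasmonate repressor JAZ1 fell by 1.14 ± 0.14 (adjusted p = 1.15e-06). Of the immunity genes 2 rose and 17 fell of 29 tested members (58.6% falling against 19.7% of all genes, median log2 −1.16). WRKY40, a pathogen- and wound-induced transcription factor (AT1G80840, chromosome 1, 30383561–30385499), stood at 60.9, 37.7 and 32.8 CPM before treatment and 2.1, 0.813 and 1.47 CPM at mock 12 h (−4.90 ± 0.47, adjusted p = 6.4e-08). OSM34, an osmotin, fell by 2.5 ± 0.18 (adjusted p = 1.18e-09) and WRKY33 by 1.98 ± 0.17 (adjusted p = 1.12e-08). Against that direction went PAD3, the last enzyme of camalexin synthesis (4.59, 4.06 and 11.2 to 47.8, 52.4 and 37.5 CPM; 2.80 ± 0.25, adjusted p = 2.95e-08), and RBOHD, a NADPH oxidase (0.74 ± 0.19, adjusted p = 0.00377).

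Other genes with the largest falls are known for fast responses to cold, touch and calcium. CBF1, a cold-response activator (AT4G25490, chromosome 4, 13021780–13022996), stood at 15.8, 12.1 and 6.69 CPM before treatment and 0.233, 0 and 0.14 CPM at mock 12 h (−6.44 ± 0.78, adjusted p = 1.54e-06). CML37, a calmodulin-like protein of wounding (AT5G42380, chromosome 5, 16942447–16943820), stood at 35.9, 18 and 17.9 CPM before treatment and 1.01, 0.961 and 0.21 CPM at mock 12 h (−5.05 ± 0.54, adjusted p = 2.82e-07). BPS3, a BYPASS1-related gene, stood at 17.2, 7.99 and 5.43 CPM before treatment and 0.155, 0.443 and 0.35 CPM at mock 12 h (−4.96 ± 0.55, adjusted p = 4.42e-07). In each the level before treatment was highest in replicate 1. Among ethylene genes 2 rose and 8 fell of 24 tested members (33.3% falling against 19.7% of all genes, median log2 −0.27). ACS6, a stress-inducible ACC synthase, fell by 3.08 ± 0.21 (adjusted p = 6.52e-10). Of the hypoxia genes 2 rose and 7 fell of 16 tested members (43.75% falling against 19.7% of all genes, median log2 −0.71). They included RAP2.3, an oxygen-sensing ERF factor (−2.23 ± 0.23, adjusted p = 2.24e-07), and the fermentation gene PDC2 (0.66 ± 0.17, adjusted p = 0.00325). The count that fell was 4 without mock 12 h replicate 3. Heat and protein folding genes divided evenly (5 rose and 5 fell of 18 tested members, median log2 −0.10), 27.8% each against 17.7% and 19.7% of all genes. HSP70 rose by 1.36 ± 0.17, adjusted p = 1.69e-06 and DREB2A fell by 1.42 ± 0.20 (adjusted p = 1.26e-05). Without mock 12 h replicate 2 the number that fell was 3.

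Genes of auxin and cytokinin, hormones that set root growth, showed no uniform direction. For the auxin response list, 4 rose and 10 fell of 39 tested members (median log2 −0.29), 10.3% and 25.6% against 17.7% and 19.7% of all genes. IAA7 and IAA16, repressors of auxin response, changed by −0.81 ± 0.13, adjusted p = 3.61e-05 and −0.63 ± 0.10, adjusted p = 6.23e-05, and IAA14 rose by 0.61 ± 0.17, adjusted p = 0.00779. IAA19 stood at 8.69, 11.6 and 12.4 CPM before treatment and 8.0, 6.72 and 7.55 CPM at mock 12 h (−0.55 ± 0.18, adjusted p = 0.0177), and its adjusted p was 0.0553, 0.0732 and 0.063 without before treatment replicate 2, before treatment replicate 3 and mock 12 h replicate 2. The number of auxin response genes that rose was 2 without before treatment replicate 3, mock 12 h replicate 1 or mock 12 h replicate 2. The importers LAX3 and LAX2 rose (0.79 ± 0.13 and 0.83 ± 0.14; adjusted p = 5.28e-05 and 6.12e-05), while LAX1 changed by −1.3 ± 0.16, adjusted p = 2.37e-06 and PILS5, an auxin carrier of the endoplasmic reticulum, by −1.61 ± 0.16, adjusted p = 1.55e-07. In that list of auxin transport, synthesis and perception 11 rose and 6 fell of 36 tested members (median log2 0.03). The 30.6% that rose stand beside 17.7% of all genes, and the 16.7% that fell were near the 19.7%. Only 7 rose without before treatment replicate 1 or mock 12 h replicate 3.

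Among cytokinin response genes 3 rose and 7 fell of 27 tested members (median log2 −0.08), 11.1% and 25.9% against 17.7% and 19.7% of all genes. ARR5, a type-A response regulator induced by cytokinin, stood at 204, 122 and 124 CPM before treatment and 53.7, 42.9 and 54.5 CPM at mock 12 h (−1.57 ± 0.20, adjusted p = 3.62e-06). LBD3, a LATERAL ORGAN BOUNDARIES DOMAIN gene induced by cytokinin, stood at 1.61, 1.24 and 1.65 CPM before treatment and 12.3, 13.5 and 11.1 CPM at mock 12 h (3.03 ± 0.27, adjusted p = 2.05e-08), the opposite direction. For synthesis and signalling 6 rose and 11 fell of 31 tested members (median log2 −0.20). The 19.35% that rose were near the 17.7% of all genes, and the 35.5% that fell stand beside 19.7%. IPT3, a nitrate-responsive isopentenyltransferase, rose by 1.36 ± 0.16, adjusted p = 8.14e-07 and CYP735A2, which makes trans-zeatin, by 1.79 ± 0.17, adjusted p = 4.24e-08, and the cytokinin importer PUP14 changed by −1.66 ± 0.17, adjusted p = 2.42e-07. The number that fell was 7 without mock 12 h replicate 2.

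Clock genes are built around CCA1 and LHY, MYB factors that peak at dawn, and the evening gene TOC1 and its partners. Of the 22 clock genes, all tested, 10 fell, 2 rose and 10 did not pass (median log2 −0.45), so 45.5% fell against 19.7% of all genes. CCA1 stood at 20.8, 24 and 42.8 CPM before treatment and 5.12, 4.66 and 2.24 CPM at mock 12 h (−2.86 ± 0.32, adjusted p = 5.2e-07). LHY stood at 29.5, 35.2 and 63.7 CPM before treatment and 13.4, 6.21 and 5.11 CPM at mock 12 h (−2.38 ± 0.35, adjusted p = 1.9e-05). Both were highest before treatment in replicate 3 and at mock 12 h all libraries lay below. LNK2, a coactivator that works with these morning factors, stood at 43.1, 37.5 and 78.5 CPM before treatment and 8.0, 6.72 and 7.69 CPM at mock 12 h (−2.83 ± 0.28, adjusted p = 8.85e-08), and PRR7, a daytime repressor, at 41.0, 31.1 and 32.6 CPM before treatment and 8.39, 9.02 and 7.27 CPM at mock 12 h (−2.08 ± 0.23, adjusted p = 5.22e-07). The REVEILLE factors RVE4 (−1.5 ± 0.14, adjusted p = 3.39e-08), RVE8 (−1.38 ± 0.22, adjusted p = 5.01e-05) and RVE1 (−1.0 ± 0.20, adjusted p = 0.000367) fell as well. RVE6 (−0.52 ± 0.18, adjusted p = 0.0242) had an adjusted p of 0.174 without before treatment replicate 1 and 0.0988 without mock 12 h replicate 2. BOA, a relative of LUX, stood at 17.4, 17.8 and 19.9 CPM before treatment and 9.94, 13.2 and 11.6 CPM at mock 12 h (−0.66 ± 0.16, adjusted p = 0.0025). TOC1 stood at 107, 116 and 79.1 CPM before treatment and 76.7, 75.4 and 73.5 CPM at mock 12 h (−0.42 ± 0.13, adjusted p = 0.0153), with an adjusted p of 0.0789 without before treatment replicate 2. The risers were LUX, of the evening complex (54.6, 45.9 and 46.3 to 75.6, 72.6 and 62.9 CPM; 0.52 ± 0.14, adjusted p = 0.00546), and GI, an evening protein that stabilises ZTL (0.56 ± 0.20, adjusted p = 0.0316). The adjusted p of GI was 0.0582–0.112 without any 1 of 5 libraries, all but before treatment replicate 2. Those that did not pass were ELF4 (−0.00 ± 0.29), ELF3 (−0.08 ± 0.14), PRR3 (−0.02 ± 0.25), PRR5 (0.08 ± 0.18), PRR9 (−0.59 ± 0.43), LNK1 (−0.14 ± 0.32), RVE2 (−0.24 ± 0.19), ZTL (0.19 ± 0.15), FKF1 (−0.49 ± 0.21) and CDF1 (0.97 ± 0.42). ELF4 before treatment ranged over 356, 159 and 108 CPM, and without replicate 1 of that group it passed as a riser (0.63, adjusted p = 0.0436). FKF1 passed without before treatment replicate 3 (−0.66, adjusted p = 0.0205), and CDF1 passed in the fit of the 6 libraries alone, without and with a replicate block (0.96 and 0.98, adjusted p = 0.0273 and 0.0345). Of the light signalling genes 4 rose and 7 fell of 25 tested members (median log2 −0.07), 16.0% and 28.0% against 17.7% and 19.7% of all genes. The light stress gene ELIP2 stood at 13.1, 4.47 and 3.46 CPM before treatment and 48.8, 49.7 and 40.6 CPM at mock 12 h (2.73 ± 0.33, adjusted p = 1.35e-06). HFR1, a bHLH factor of shade and far-red light, changed by −1.34 ± 0.21, adjusted p = 3.15e-05.

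The evening element, AAAATATCT, and the G-box, CACGTG, are sites known to be bound by clock MYB factors and by bZIP and bHLH factors, in that order. The evening element lay in 5 of 22 clock windows (22.7%), against 2.37% of all windows, 2.43% of those of genes that rose and 2.45% of those of genes that fell. The G-box lay in 8 of 22 (36.4%), against 7.26%, 7.07% and 8.94%. Both strands were searched, and neither motif contains another motif searched. The windows below are those of the 2 fallen clock genes per motif with the smallest adjusted p whose window touches no other gene, 5′ to 3′, with the evening element (BOA, chr5:24003638-24003887, plus strand, and TOC1, chr5:24674713-24674962, plus strand) or the G-box (CCA1, chr2:19245341-19245590, plus strand, and PRR7, chr5:642031-642280, minus strand) in capitals. The BOA window also holds a G-box, left in lower case. A match describes the letters and is no evidence of binding.
BOA: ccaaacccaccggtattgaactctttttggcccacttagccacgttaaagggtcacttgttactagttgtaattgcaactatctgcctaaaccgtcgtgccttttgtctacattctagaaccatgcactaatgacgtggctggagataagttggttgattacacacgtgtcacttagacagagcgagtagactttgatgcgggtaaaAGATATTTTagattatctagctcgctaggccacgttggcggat
TOC1: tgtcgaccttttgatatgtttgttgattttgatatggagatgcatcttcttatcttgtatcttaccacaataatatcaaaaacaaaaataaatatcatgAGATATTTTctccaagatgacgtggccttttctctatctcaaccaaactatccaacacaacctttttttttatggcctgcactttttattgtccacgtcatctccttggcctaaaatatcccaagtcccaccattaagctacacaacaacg
CCA1: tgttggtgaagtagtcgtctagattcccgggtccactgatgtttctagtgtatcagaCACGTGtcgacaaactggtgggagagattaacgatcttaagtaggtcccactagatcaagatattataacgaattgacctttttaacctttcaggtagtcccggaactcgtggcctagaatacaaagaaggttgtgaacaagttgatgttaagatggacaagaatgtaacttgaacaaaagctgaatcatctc
PRR7: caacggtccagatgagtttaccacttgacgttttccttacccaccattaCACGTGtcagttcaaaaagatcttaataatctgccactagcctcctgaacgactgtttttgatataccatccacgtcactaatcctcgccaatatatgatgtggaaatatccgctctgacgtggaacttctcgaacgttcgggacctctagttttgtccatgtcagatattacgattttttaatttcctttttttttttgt

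Among genes of root tissues the shares that fell ranged from 8.33% in the meristem and stem cell niche list to 64.3% in the endodermis list, against 19.7% of all genes. Those of the phloem (23.8%), xylem (24.1%) and root hair (25.8%) lists were near that background. Endodermis and Casparian strip genes had 9 of 14 down and none up, with SGN1, a kinase of the barrier, at 114, 118 and 116 CPM before treatment and 43.9, 39.5 and 37.3 CPM at mock 12 h (−1.53 ± 0.15, adjusted p = 9.84e-08) and CASP5 at 22.9, 25.8 and 45.9 CPM before treatment and 5.36, 6.95 and 7.2 CPM at mock 12 h (−2.27 ± 0.27, adjusted p = 1.05e-06). In that list 1 member rose without before treatment replicate 1. Of the suberin genes 2 rose and 9 fell of 22 tested members (median log2 −0.19), with the regulator MYB107 at 8.13, 9.85 and 7.95 CPM before treatment and 3.57, 4.66 and 4.2 CPM at mock 12 h (−1.06 ± 0.23, adjusted p = 0.00094), and of the risers none passed without before treatment replicate 3 and 1 without mock 12 h replicate 2 or 3. Of 31 tested root hair genes 8 fell and none rose (median log2 −0.13), RSL4 changing by −1.11 ± 0.24, adjusted p = 0.00107. For root hairs 5 genes fell without mock 12 h replicate 1, and 1 rose without before treatment replicate 3. For the xylem list 2 rose and 7 fell of 29 tested members (median log2 −0.17), with ACL5, which makes thermospermine in vessel precursors, at −1.37 ± 0.13, adjusted p = 9.58e-08. Only 1 xylem gene rose without replicate 1 or 2 of either group. In the phloem list 1 rose and 5 fell of 21 tested members (median log2 −0.18), with TMO6, a DOF factor of vascular cells, at −0.98 ± 0.19, adjusted p = 0.000272 and OPS, a protophloem protein, at 0.82 ± 0.17, adjusted p = 0.000791. Of the root cap list 1 rose and 4 fell of 9 tested members (median log2 −0.36), BFN1, a nuclease of dying cap cells, changed by −2.07 ± 0.33, adjusted p = 5.06e-05, and 2 fell without before treatment replicate 3 or mock 12 h replicate 3. The root cap riser, BGLU23, had an adjusted p of 0.0542–0.257 without before treatment replicate 1 or 3 or mock 12 h replicate 1 or 2.

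Photosynthesis genes, which mark green shoot tissue, were lower at mock 12 h, and before treatment replicate 3 stood apart in them. The summed level of the 35 tested genes was 1269, 1449 and 3984 CPM before treatment and 799.6, 809.9 and 676 CPM at mock 12 h, and none of the 37 listed had 0 reads over either group. Of the tested genes 27 fell (77.1% against 19.7% of all genes) and 1 rose (median −1.35). Without before treatment replicate 3 it was 16 and 1 (median −0.66). None rose without before treatment replicate 2 or mock 12 h replicate 2. LHCB1.2, a light-harvesting protein (AT1G29910, chromosome 1, 10472280–10473502), stood at 1.29, 0.413 and 67.5 CPM before treatment and 0.155, 0.222 and 0.28 CPM at mock 12 h. Its change of −6.64 ± 1.34, adjusted p = 0.000499 became −1.89 with an adjusted p of 0.107 without that library. LHCB1.3, the most abundant of the list in that library, stood at 190.5, 229 and 1458 CPM before treatment and 61.3, 65.4 and 49.4 CPM at mock 12 h (−3.41 ± 0.53, adjusted p = 3.01e-05). Near-identical LHCB1 copies make the split of their reads uncertain. HEMA1, a chlorophyll synthesis gene without that pattern, stood at 97.1, 98.0 and 94.0 CPM before treatment and 28.6, 34.5 and 29.3 CPM at mock 12 h (−1.65 ± 0.13, adjusted p = 7.14e-09). Without before treatment replicate 3 the count over all genes was 6635 (2984 higher, 3651 lower), and iron, nitrogen, starvation and abscisic acid members then numbered 18 higher, 16 higher, 20 lower and 21 lower. Without before treatment replicate 1, in which CML37, WRKY40 and XTH22 were highest, it was 6047 (2714 higher, 3333 lower), with jasmonate and immunity members numbering 12 and 16 lower. The part of shoot tissue and handling in the other results was not tested.

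**Figure D3:**
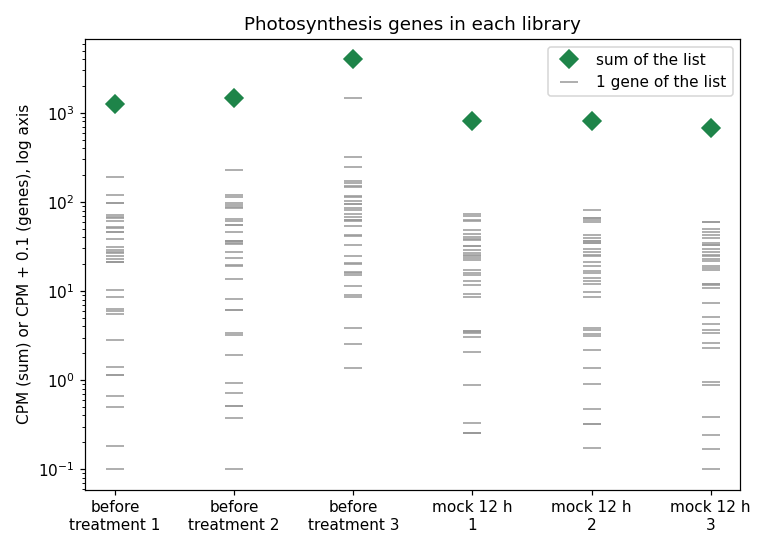
CPM + 0.1 of each of the 35 tested photosynthesis genes (grey dashes) and their summed CPM (green diamonds), on a log axis, in each of the 3 libraries before treatment and the 3 at mock 12 h. The sum is 3984 CPM in before treatment replicate 3 and 676–809.9 CPM at mock 12 h.

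Set against the other mock samples, few genes distinguished 12 h. Between mock 12 h and mock 6 h 144 genes differed (0.722% of 19938; 49 higher and 95 lower at 12 h), and between mock 24 h and mock 12 h 175 differed (0.878%; 130 higher and 45 lower at 24 h). Against the same libraries taken before treatment, 7724 genes changed at mock 6 h and 6996 at mock 24 h, and since these comparisons share the libraries before treatment, their values are only set side by side. Of the starvation list 22, 20 and 16 members were lower than before treatment at 6, 12 and 24 h, and of the abscisic acid list 18, 22 and 18. Members higher than before treatment at those times numbered 19, 19 and 16 in the iron list, 19, 15 and 15 in the nitrogen list and 14, 14 and 12 in the flavonoid list. For ribosome biogenesis they were 21, 19 and 16, and for G2 and M phase 18, 21 and 17. Some iron genes were highest at 12 h: 7 of the 30 were higher than at 6 h and 1 lower, and 9 were lower at 24 h than at 12 h. FRO2 averaged 10.3 CPM before treatment, 120.5 at 6 h, 302 at 12 h and 93.4 at 24 h, and the steps from 6 to 12 h (1.33 ± 0.28, adjusted p = 0.0261) and from 12 to 24 h (−1.69 ± 0.28, adjusted p = 0.00221) both passed. CYP82C4 averaged 33.2, 198 and 53.0 CPM at 6, 12 and 24 h. NRT2.1 took the other course, with 478 CPM at 6 h, 91.5 at 12 h (−2.39 ± 0.34, adjusted p = 0.000804) and 93.2 at 24 h (0.03 ± 0.33, adjusted p = 1). CEPH likewise averaged 20.7 CPM at 6 h and 4.22 at 12 h (−2.28 ± 0.33, adjusted p = 0.000821). The dawn genes CCA1 and LHY were higher at 24 h than at 12 h (1.98 ± 0.32, adjusted p = 0.00187 and 1.81 ± 0.35, adjusted p = 0.0106), with mean levels at 24 h of 15.8 and 28.8 CPM against 29.0 and 42.8 CPM before treatment. The wound and touch genes CML37 (2.5 ± 0.56, adjusted p = 0.0291), ACS6 (1.3 ± 0.20, adjusted p = 0.00124) and XTH22 (1.74 ± 0.31, adjusted p = 0.00432) were higher at 24 h than at 12 h as well. Counts of the difference from 6 h were 30–94 whichever library was left out, against 144 with all, and the reason was not tested. The 30 came without mock 6 h replicate 2, where ribosomal RNA genes took 2.2% of the counts. Counts of the difference from 24 h were 67, 73 and 79 without mock 12 h replicate 3, 1 and 2 and 89 without mock 24 h replicate 2.

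**Figure D4:**
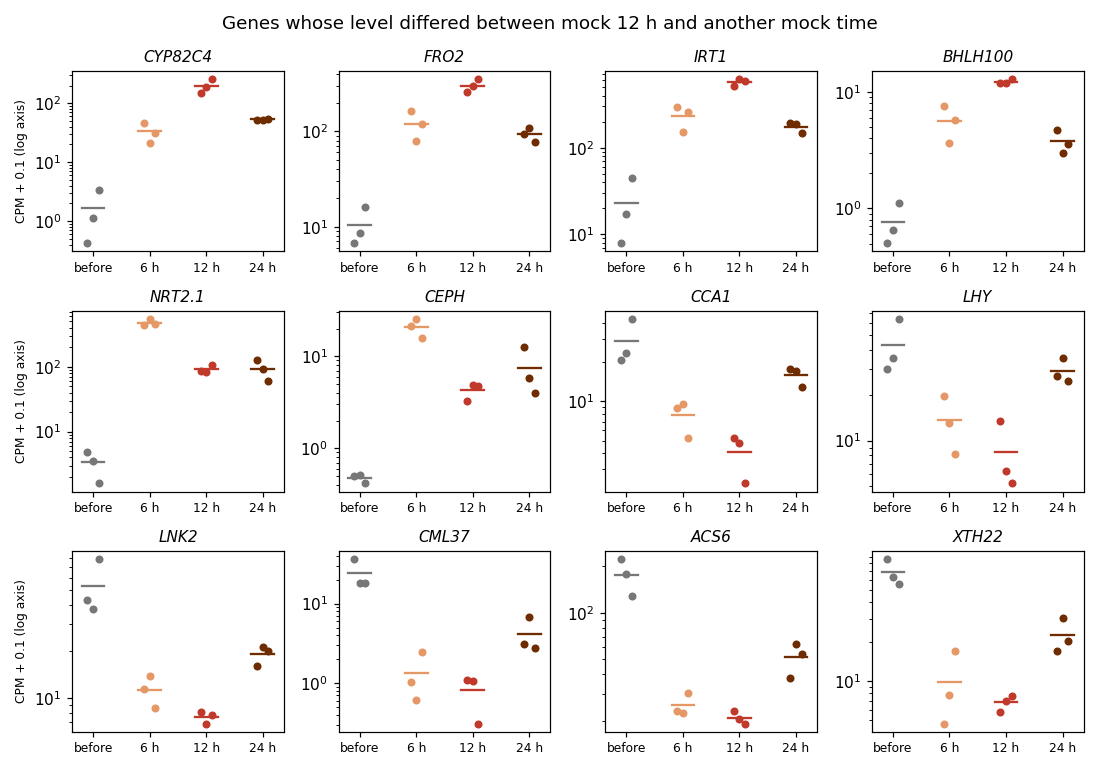
CPM + 0.1 on a log axis for 12 genes that differed between mock 12 h and mock 6 h or mock 24 h, in the 3 libraries each before treatment and at mock 6, 12 and 24 h, with a bar at the mean of the plotted values. By their means the 4 iron genes are highest at 12 h, NRT2.1 and CEPH are highest at 6 h, and CCA1, LHY, LNK2, CML37, ACS6 and XTH22 are lowest at 12 h. For IRT1, BHLH100 and the genes lowest at 12 h the step from 6 to 12 h did not pass the test.

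At 12 h roots treated with AtCEP5 differed from mock roots in 2417 genes (12.1%; 1338 higher and 1079 lower with the peptide), with 2529 genes when AtCEP5 12 h replicate 3, in which ribosomal RNA genes took 1.96% of the counts, was left out, 1443 without AtCEP5 12 h replicate 1 and 1566 without mock 12 h replicate 3. This comparison shares the mock 12 h libraries with the one above. Of the starvation list 28 of 29 were higher than in mock and none lower, with SEN1 at 70.1, 54.9 and 28.1 CPM (5.56 ± 0.65, adjusted p = 4.74e-06). Of the flavonoid list 13 of 18 were lower and 1 higher. IRT1, FRO2 and NRT2.1 did not pass (0.28 ± 0.35, 0.31 ± 0.27 and −0.16 ± 0.33; adjusted p = 0.678, 0.522 and 0.813). SWEET11 averaged 0.406 CPM with the peptide, and SWEET12 3.56 CPM (2.64 ± 0.63, adjusted p = 0.00648), both below their levels before treatment. ATC, a homologue of TFL1, which delays flowering, stood at 19.1, 31.8 and 50.9 CPM before treatment, 67.1, 72.5 and 64.9 CPM at mock 12 h (1.0 ± 0.23, adjusted p = 0.00149) and 0.772, 0.867 and 1.05 CPM with AtCEP5 at 12 h. SULTR1;3, a sulfate transporter of the phloem, stood at 0, 0.138 and 0.472 CPM before treatment and 1.71, 1.33 and 1.82 CPM at mock 12 h (2.94 ± 0.57, adjusted p = 0.000331), and at 0.0772, 0.0723 and 0.288 CPM with AtCEP5.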

How the data were processed

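Poly-A libraries of root RNA were made after TRIzol extraction and DNase treatment, per the labels' protocols. The authors deposited read counts and FPKM for each gene; the submitters' processing notes name STAR 2.7.8a, StringTie 2.1.3 and HTSeq. Genome build and strand setting: not given in the sources used here. The table's coordinates equal those of TAIR10.1 for 32520 of 32548 matched loci, so windows of 250 bases were read there. All 461492 deposited FPKM values above 0 were 10 times those recomputed from counts (relative tolerance 1e-06) and were divided by 10.

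Counts of 21 libraries were fitted together in edgeR 4.0.16 (R 4.3.3; TMM, filterByExpr, 7 group means, quasi-likelihood test, 14 residual degrees of freedom), checked on simulated data. CPM are TMM-scaled. The 38 gene lists, the members and the rules were chosen with earlier results of these data known. Named genes are the 10 largest changes per direction among non-overlapping genes with a symbol and a mean of at least 5 CPM, up to 2 passing members per list and direction, all clock genes and 12 others; LKR, FIB1, CWINV5, NRT2.4, MYB72, CEP9 and LHCB1.3 were chosen with their values in view. Of 165 named genes 32 overlap a gene on the opposite strand (among them WRKY40, WRKY33, ASN1, BGAL4, NRT1.5, APR2, DREB2A, PILS5, PUP14, CASP5, ACL5, PAP17, LUX, LNK2, RVE1, BOA and TPS1), where reads cannot be told apart without strand. Values of 1 named gene and 1 promoter window are not reported here. Exact 95% counting intervals cover counting error only. DESeq2 1.42.0, limma 3.58.1 on log2 FPKM, other filters and scaling, a replicate block and leaving out libraries were the alternatives.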

Additional observations from a re-analysis of the deposited data

Results flagged for a closer look

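The change since before treatment differed between mock times for 26 values of named genes, by edgeR's quasi-likelihood test of the direct difference with adjustment over all 19938 genes. Each test shares the mock 12 h libraries with the comparison that chose the genes, and n is 3 libraries per group. Higher at 12 h than at 6 h, as log2 differences ± SE, were CYP82C4 (2.57 ± 0.36, adjusted p = 0.000797), FRO2 (1.33 ± 0.28, adjusted p = 0.0261), VTL5 (1.63 ± 0.22, adjusted p = 0.000501), LAX2 (0.59 ± 0.14, adjusted p = 0.0396) and ACL5 (0.63 ± 0.14, adjusted p = 0.031). Lower at 12 h than at 6 h were NRT2.1 (−2.39 ± 0.34, adjusted p = 0.000804), PHF1 (−0.66 ± 0.15, adjusted p = 0.0384), CEPH (−2.28 ± 0.33, adjusted p = 0.000821) and SULTR1;3 (−2.09 ± 0.40, adjusted p = 0.0135). Higher at 24 h than at 12 h were CML37 (2.5 ± 0.56, adjusted p = 0.0291), LNK2 (1.35 ± 0.27, adjusted p = 0.0146), LBD3 (0.98 ± 0.21, adjusted p = 0.0233), ACS6 (1.3 ± 0.20, adjusted p = 0.00124), CYP94B3 (1.07 ± 0.21, adjusted p = 0.0112), OSM34 (1.15 ± 0.17, adjusted p = 0.00108) and WRKY33 (0.74 ± 0.16, adjusted p = 0.0274). The same held for XTH24 (1.12 ± 0.18, adjusted p = 0.00196), XTH22 (1.74 ± 0.31, adjusted p = 0.00432), FACT (1.31 ± 0.20, adjusted p = 0.00162), HEMA1 (0.77 ± 0.13, adjusted p = 0.00332), CCA1 (1.98 ± 0.32, adjusted p = 0.00187) and LHY (1.81 ± 0.35, adjusted p = 0.0106). Lower at 24 h than at 12 h were CYP82C4 (−1.90 ± 0.35, adjusted p = 0.00724), FRO2 (−1.69 ± 0.28, adjusted p = 0.00221), IRT1 (−1.71 ± 0.36, adjusted p = 0.0196) and BHLH100 (−1.74 ± 0.30, adjusted p = 0.00321). Of these genes FACT, which makes the fatty alcohols of suberin, had an adjusted p of 0.039 at mock 12 h against before treatment and 0.262 without before treatment replicate 3.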

How the results depend on the processing

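The count for mock 12 h against before treatment, 7455, was 6439–7618 under the 10 alternatives that kept all 6 libraries and 6021–7220 when any 1 library was left out. Of the 153 named genes that passed, 136 kept direction and call under every alternative that gave a value. Over 2633 combinations of gene and alternative 2542 kept both, 73 lost the call, 4 gained it in the same direction and 14 reversed. The count against mock 6 h, 144, was 353 with 6 libraries, 320 with DESeq2 and 223 with 6 libraries and a replicate block, and 30–94 without any 1 library. The count of mock 24 h against mock 12 h, 175, was 291 with DESeq2, 105 with limma on log2(FPKM + 1) without a filter and 318 with 6 libraries and a replicate block, and 67–188 without any 1 library. For AtCEP5 12 h against mock 12 h, 2417, leaving out 1 library gave 1443–2529. The cause of these shifts was not tested.

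Same-numbered libraries had residual correlations of −0.012, 0.059 and 0.0614, under the chosen minimum of 0.1, so the number was not used as a pairing. Such a cut-off cannot exclude pairing, and the labels leave it open. Mock 12 h replicates 2 and 3 correlated best with their own number and replicate 1 did not. With a replicate block the main count was 7228 over 21 libraries and 6439 over 6. Directions reversed only for 5 clock genes that had not passed, and 1 of these values passed (ELF4, 0.6261, adjusted p = 0.0436). ELF4 (−0.0008) was 0.1784 with limma on log2(FPKM + 0.1), 0.1774 on log2(FPKM + 1) with and without a filter, 0.0013 in edgeR with no filter, and 0.0467 and 0.1789 with a replicate block over 21 and 6 libraries. When any 1 library was left out, ELF4 was −0.3323 to 0.6261, RVE2 (−0.24) −0.4155 to 0.0138, LNK1 (−0.14) −0.3449 to 0.1907, PRR5 (0.08) −0.052 to 0.2074 and PRR3 (−0.02) −0.2007 to 0.2251. Depth limits genes at or under the floor of 3 reads per library.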

Other observations

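Gene families were also read from RefSeq product names, with families chosen after the data were seen and no test of a family. Cytosolic and organelle ribosomal protein genes rose, 158 of 313 tested against 10 that fell (median log2 0.45). Pentatricopeptide repeat genes, whose proteins process organelle RNA, had 57 of 232 higher and 4 lower (median 0.37), and RNA helicases 26 of 61 higher and 6 lower. Kinesins, the microtubule motors of dividing and growing cells, had 15 of 27 higher and none lower, tubulins 6 of 13 and none, and minichromosome maintenance genes of DNA replication 7 of 12 and 1.

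Falling families were RING and U-box ubiquitin ligases, with 113 of 395 lower (28.6%) and 31 higher (median −0.17), and calmodulin-related genes with 14 of 46 lower and 2 higher. Glutathione S-transferases, enzymes of detoxification, had 14 of 40 lower and 3 higher (median −0.34). Among all genes tested 17.7% rose and 19.7% fell. F-box genes had 35 of 166 lower (21.1%), near the share of all genes, and 9 higher (5.42%). Receptor-like kinases had 36 of 211 higher (17.1%, near the share of all genes) and 17 lower (8.06%), and class III peroxidases were divided, with 12 of 59 higher and 16 lower.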
